A study of Mus musculus with 8 samples.

Results

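The slit diaphragm is the modified adherens junction that bridges the foot processes of neighbouring podocytes, the epithelial cells of the glomerular filter. Its transcripts were examined here in isolated glomeruli of mice that lack the tetraspanin CD151. A set of 9 genes was looked for by gene symbol in the signal table, namely Nphs1, Kirrel, Kirrel2, Kirrel3, Fat1, Cd2ap, Tjp1, Nck1 and Nck2, and 7 of them were found, on 9 of the 25697 probes (7 of 18120 gene symbols). Kirrel had no row under that symbol but a row as Kirrel1, a synonym in the RefSeq gene table, which brought the set to 8 genes and 10 probes. Nphs1, which encodes nephrin, had no row in the table, so the nephrin transcript was not measured here.

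The samples were glomerular isolates of 4 Cd151+/+ and 4 Cd151-/- mice, all males of the FVB/N strain aged 3 weeks, with 1 array for each mouse. The deletion was present in the whole animal and was not restricted to podocytes. The isolates hold podocytes together with endothelial and mesangial cells, so that fewer cells of a type and less RNA per cell cannot be told apart. The labels name no treatment, and the comparison of the genotypes asked which transcripts differ early in the glomerular disease of these mice.

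Nephrin, the KIRREL (NEPH) proteins and FAT1 are transmembrane proteins, and the ectodomains of nephrin and the KIRREL proteins form the strands that span the filtration slit. At the cytoplasmic face, CD2AP and ZO-1 (encoded by Tjp1) anchor the complex, and the adaptors NCK1 and NCK2 bind phosphorylated nephrin and recruit regulators of actin polymerisation. Loss of nephrin or CD2AP causes nephrotic disease in humans and mice.

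The arrays were Illumina MouseRef-8 v1.1 BeadChips. A probe was called detected on an array when the deposited detection p was at or below 0.05, which compares its signal with that of the negative control beads. The inferred background lay between 59.0 and 129 intensity units on the Cd151+/+ arrays and between 68.8 and 135 on the Cd151-/- arrays, and 11291 to 12270 and 11317 to 12359 probes were detected. By this background the arrays fell into 2 sets, each with 2 mice of each genotype. Mice 3 and 4 of the Cd151+/+ group and mice 1 and 2 of the Cd151-/- group made up the set of higher background, and the remaining mice the set of lower background. The brightest Cd151 probe, which checks the genotype labels, averaged 14.37 ± 0.24 on the log2 scale in Cd151+/+ mice (SD, n = 4, detected in 4 of 4). In Cd151-/- mice it averaged 4.57 ± 0.08 (detected in 0 of 4). The other Cd151 probes, likewise detected in 0 of 4 Cd151-/- mice, gave log2 fold changes of -7.30 and -6.99. Among the podocyte markers, 10 of 12 listed genes were detected on at least 1 array, 8 of them on all 8 arrays. Their summed normalised signal was 58973 to 63803 in the controls and 53631 to 64793 in the mutants, a log2 ratio of -0.05. Of these 10 genes 7 were lower and 3 higher in Cd151-/- mice. Plce1, a phospholipase C of podocytes, was called lower at an unadjusted p of 0.05 (log2 fold change -0.56), as were 2.61% of all tested probes. A single gene, Cdkn1c, made up 69.5 to 86.5% of the sum, and the sum of the other 9 genes was 12586 to 15522 in the controls and 7243 to 19745 in the mutants.

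None of the slit diaphragm genes of the set passed the test between the genotypes, and most of them were near or below the detection limit. Of the 10 probes, 5 were not detected on any array, and a single probe, that of Nck2, was detected on all 8 arrays. The 5 probes detected on at least 1 array, for Kirrel2, Fat1, Tjp1, Nck1 and Nck2, entered the test with 14967 probes in all (limma on normalised log2 signals). At an unadjusted p of 0.05, 0 of the 5 were called, beside 4.30% of all tested probes (1.69% higher and 2.61% lower in Cd151-/-). After Benjamini-Hochberg adjustment over all tested probes 0 of the 5 passed, as against 0.0334% of all probes. Their median log2 fold change, Cd151-/- minus Cd151+/+, was -0.01, and that of all tested probes was -0.01. In none of the 5 were the ranges of the genotypes apart, which was the case for 2.31% of all tested probes (0.855% higher and 1.46% lower).

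Of the transmembrane strand proteins, the probes of Kirrel (listed as Kirrel1, ILMN_2621422) and Kirrel3 (ILMN_2599008) were not detected on any array. The Kirrel1 signal was 0.946 to 1.21 times the background of its array, with a lowest detection p of 0.0802, and the Kirrel3 signal was 0.891 to 1.04 times the background, with a lowest detection p of 0.323. Whether these probes respond to their transcripts was not tested, so the values do not show how low the transcripts are. No difference between the genotypes could be read from them.

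Kirrel2, which encodes filtrin (NEPH3) and lies beside Nphs1 in the genome, was the only strand gene of the KIRREL family with a detected signal (probe ILMN_2629246). Its log2 signal was 4.66, 5.60, 5.94 and 4.79 in Cd151+/+ mice 1 to 4 and 5.15, 5.01, 4.74 and 4.63 in Cd151-/- mice 1 to 4. The signal passed the detection limit in Cd151+/+ mice 2 and 3 and in 0 of 4 Cd151-/- mice, and the ranges overlapped. The means were 5.25 ± 0.62 and 4.88 ± 0.24 (SD, n = 4 each), and the log2 fold change was -0.37 with a standard error of 0.30 (95% interval -1.04 to 0.30, limma adjusted p = 0.918). Because the probe was not detected in any Cd151-/- mouse and the bound on the ratio was under 1, no fold is given. The difference was -0.45 within the set of lower background and -0.28 within the set of higher background.

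Fat1, a protocadherin of the slit membrane, was also close to the detection limit (ILMN_2893199). The log2 signal was 4.82, 5.80, 5.35 and 5.74 in Cd151+/+ mice and 5.08, 5.23, 6.10 and 5.59 in Cd151-/- mice, detected in 3 of 4 and 2 of 4. The groups overlapped over most of their range, with means of 5.43 ± 0.45 and 5.50 ± 0.45 (SD, n = 4 each). The log2 fold change was 0.07 ± 0.30 (SE, 95% interval -0.59 to 0.72, limma adjusted p = 0.972), and it was 0.53 within the set of lower background and -0.39 within that of higher background, so that no direction could be assigned.

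**Figure D1:**
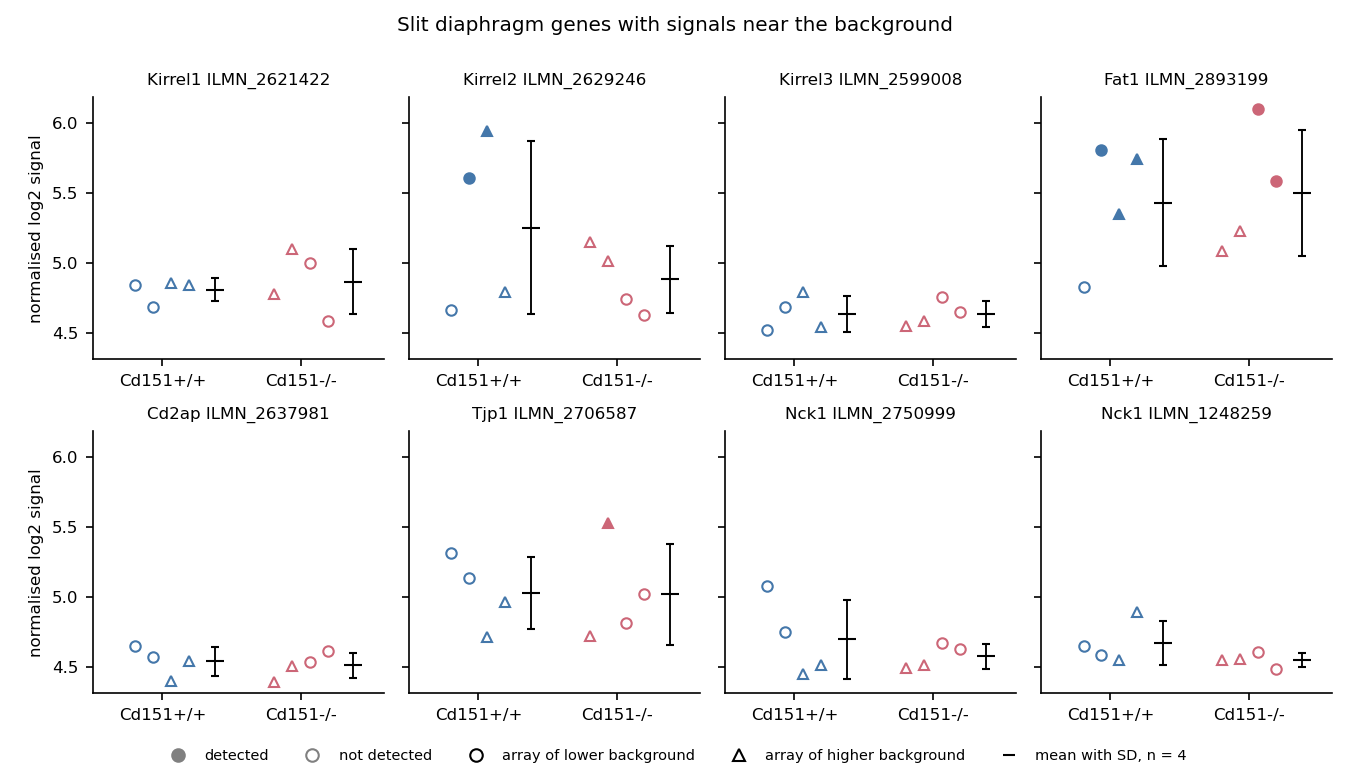
Normalised log2 signal (y axis, the same for all panels) of the 8 probes of slit diaphragm genes that were near or below the detection limit, in the 4 Cd151+/+ and 4 Cd151-/- mice (x axis). Each point is 1 mouse, filled where the probe was detected and open where it was not, round for arrays of lower and triangular for arrays of higher background, and the bars give the mean and SD of 4 mice. Only Kirrel2, Fat1 and Tjp1 have filled points, and their groups overlap.

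At the cytoplasmic face, Cd2ap, whose product links nephrin to the cytoskeleton, was not detected on any array (ILMN_2637981). Its signal was 0.747 to 0.970 times the background, below it on all 8 arrays, and the lowest detection p was 0.595. Whether this probe responds to the Cd2ap transcript was not tested either. Tjp1 was detected on a single array, that of Cd151-/- mouse 2 (ILMN_2706587). Its log2 signal was 5.31, 5.14, 4.71 and 4.96 in Cd151+/+ mice and 4.72, 5.52, 4.81 and 5.02 in Cd151-/- mice. The means of 5.03 ± 0.26 and 5.02 ± 0.36 (SD, n = 4 each) differed by -0.01 with a standard error of 0.24 (95% interval -0.55 to 0.52, limma adjusted p = 0.996), and the difference was -0.31 in the set of lower and 0.28 in the set of higher background. No Cd151+/+ array detected this transcript, so the interval describes signals at or under the detection limit.

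The adaptor genes were the only ones of the set detected in most mice of both groups. Nck2 was detected on all 8 arrays at 11.6 to 39.9 times the background (ILMN_2596917). The log2 signal was 10.81, 10.81, 11.20 and 11.14 in Cd151+/+ mice 1 to 4 and 10.97, 11.57, 10.56 and 10.53 in Cd151-/- mice 1 to 4. The Cd151-/- values spanned a wider range that enclosed all 4 Cd151+/+ values. The means were 10.99 ± 0.21 and 10.91 ± 0.48 (SD, n = 4 each), and the log2 fold change was -0.08 ± 0.27 (SE, 95% interval -0.67 to 0.50, limma adjusted p = 0.962). The interval leaves room for a change of less than 1 log2 unit in either direction. Within the set of lower background both Cd151-/- mice were below both Cd151+/+ mice (difference -0.26), whereas in the set of higher background the genotypes overlapped (difference 0.10).

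Nck1 had 3 probes, of which ILMN_2917618 was detected on 7 of 8 arrays. The log2 signal was 5.11, 5.84, 7.22 and 7.66 in Cd151+/+ mice 1 to 4, the first of them not detected, and 8.01, 8.06, 6.49 and 6.37 in Cd151-/- mice 1 to 4. The Cd151-/- mice 1 and 2 were the highest of all mice and Cd151+/+ mice 1 and 2 the lowest, while the other mice of both genotypes lay between them. The means were 6.46 ± 1.19 and 7.23 ± 0.93 (SD, n = 4 each), and the log2 fold change of 0.77 (1.71-fold higher in Cd151-/-) had a standard error of 0.59 and did not pass the test (95% interval -0.52 to 2.06, limma adjusted p = 0.918). An exact permutation test, two-sided and over all 70 ways to label the mice, gave p = 0.343, where the smallest p it can give is 0.0286.

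Most of the spread of Nck1 followed the set of arrays. The 4 arrays of higher background were 1.78 log2 units above the 4 arrays of lower background, beyond the 95th percentile of the same difference over all tested probes (1.09, with a 5th percentile of -0.84). In each set both Cd151-/- mice were above both Cd151+/+ mice. The group means were 5.48 and 6.43 in the set of lower background, a difference of 0.95, and 7.44 and 8.03 in the set of higher background, a difference of 0.59. When the limma fit took the array set as a block, the log2 fold change stayed at 0.77, the standard error fell to 0.21 (95% interval 0.31 to 1.23), and the unadjusted p was 0.00400 with an adjusted p of 0.355. At an unadjusted p of 0.05 this fit called 1 of the 5 genes, Nck1, as higher, where 5.21% of all tested probes were called higher, 6.08% lower and 11.3% in either direction, and 0 of the 5 after adjustment (0.0535% of all probes). Nck1 was also the only one of the 5 called with array weights, a fit that called 32.2% of all probes (15.6% higher and 16.6% lower), and in the set of lower background alone, with 7.32% of all probes (3.73% higher and 3.59% lower). What distinguishes the sets of arrays is given in neither the labels nor the headers, and its part in the Nck1 signal was not tested. For Nck2 the arrays of higher background were 0.54 log2 units above the others, within the range of the middle 90% of probes.

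**Figure D2:**
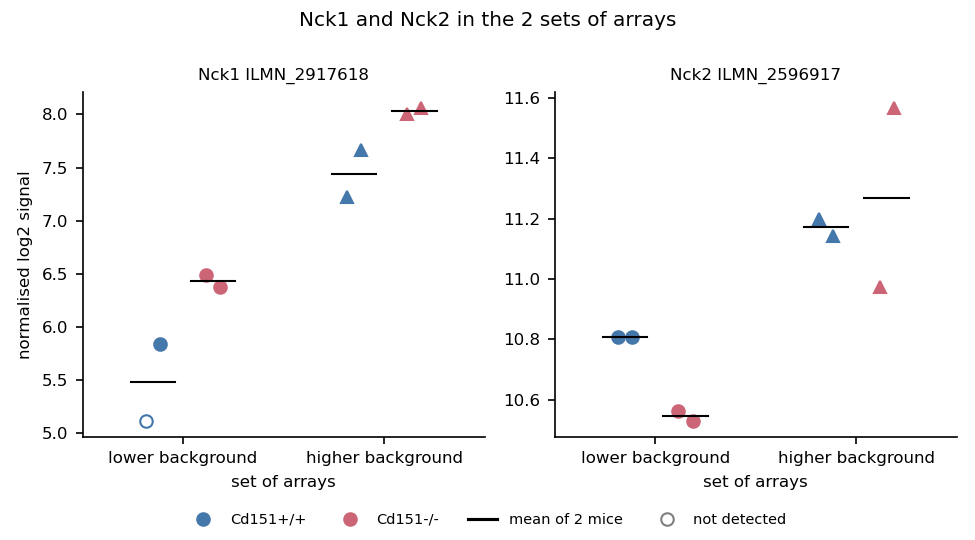
Normalised log2 signal (y axis, a separate scale for each gene) of the detected probes of Nck1 and Nck2 in the arrays of lower and higher background (x axis). Each point is 1 mouse, open where not detected, and each bar is the mean of 2 mice of a genotype. Nck1 was higher in both Cd151-/- mice than in both Cd151+/+ mice of either set and was higher in the set of higher background, whereas the Nck2 difference was -0.26 in the set of lower and 0.10 in the set of higher background.

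The other Nck1 probes, ILMN_2750999 and ILMN_1248259, were not detected on any array (lowest detection p 0.155 and 0.190). They share a target key that differs from the target key of the detected probe, so the array design assigns them to another Nck1 transcript record. The difference described above therefore rests on a single probe. The proximal tubule markers, which trace tubule fragments in the isolates, were higher in Cd151-/- mice for 11 of 11 genes detected on at least 1 array. Only 7 of them were detected on all 8 arrays. Lrp2, Gatm and Pck1 were detected on Cd151-/- arrays alone, so the detection filter itself favoured a higher value in that group. Kap and Slc22a8 were called higher, 2 of 11 beside 1.69% of all tested probes, and Slc22a8 was detected in 1 of 4 Cd151+/+ mice. The sums were 19449 to 60242 in Cd151+/+ and 39250 to 75167 in Cd151-/- mice, a log2 ratio of 0.67. This ratio was 1.28 in the set of lower and 0.05 in the set of higher background. The Nck1 difference was 0.95 in the set of lower and 0.59 in the set of higher background. The other cell types are given with the number of listed genes detected on at least 1 array. The log2 ratio of the summed markers was -0.34 for glomerular endothelium (9 of 10) and 0.08 for mesangium and smooth muscle (6 of 9). It was -0.49 for loop, distal tubule and collecting duct (6 of 8). For leukocytes it was -0.12 (4 of 8, with Ptprc, the pan-leukocyte marker CD45, not detected), and for erythroid cells -0.70 (3 of 4). Of the mesangial and smooth muscle genes, Acta2 (smooth muscle actin) was called higher at an unadjusted p of 0.05, at 0.71. Pdgfrb (the PDGF receptor beta chain) was called lower, at -0.74. Over all tested probes, 1.69% were called higher and 2.61% lower. Of the erythroid genes, 2 of 3 were called lower, Alas2 at -2.57 and Hba-a1 at -0.69, while Hbb-b1 was detected on only 1 of 8 arrays. The erythroid sums of the groups did not overlap. Among all tested single probes, 1.46% were lower without overlap. No gene of the other lists was called besides those of the proximal tubule and the podocyte. The part of these cells' RNA in the Nck1 signal was not tested.

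**Figure D3:**
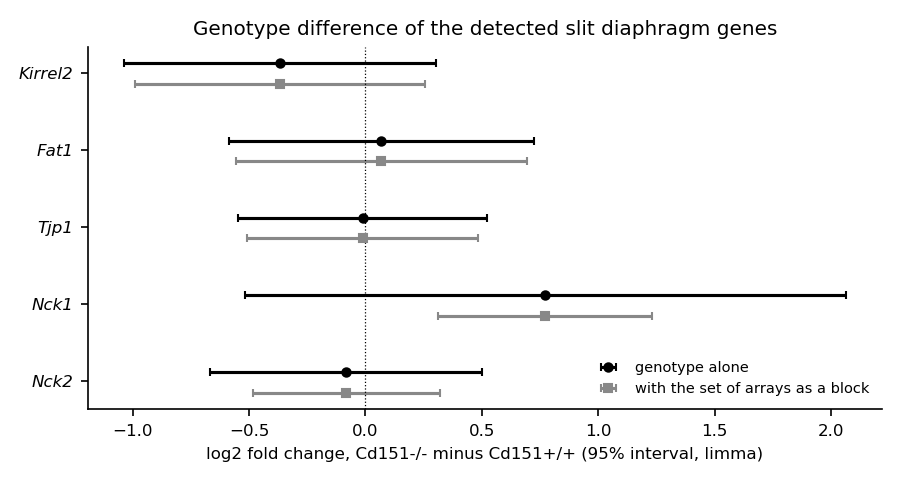
Log2 fold change, Cd151-/- minus Cd151+/+ (x axis), with its 95% interval for the 5 tested slit diaphragm genes (y axis), from the fit on genotype alone (black circles) and with the array set as a block (grey squares), 4 mice a group. All intervals of the genotype fit include 0, and in the block fit only that of Nck1 (0.31 to 1.23) does not.

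To place the set among its interaction partners, 53 further genes of slit diaphragm signalling were listed by role, of which 38 were tested, 27 of them detected on all 8 arrays. Another 8 were not detected, among them Magi2 (listed as Acvrinp1), a scaffold of nephrin, and 7 had no row, among them Synpo (synaptopodin) and Myo1e. Of the 38 tested, 18 were higher and 20 lower in Cd151-/-, with a median log2 fold change of -0.02 (all probes -0.01). At an unadjusted p of 0.05, 1 was called higher (1.69% of all probes) and 0 lower (2.61% of all probes), 0 passed after adjustment, and in none were the genotypes without overlap.

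The partner called higher was Iqgap1, a scaffold that binds nephrin and actin (ILMN_2654495). Its log2 signal was 10.21, 10.11, 10.59 and 10.38 in Cd151+/+ mice 1 to 4 and 11.57, 11.85, 10.79 and 10.22 in Cd151-/- mice 1 to 4. Of the Cd151-/- mice, 3 were above all Cd151+/+ mice and mouse 4 lay within their range. The means were 10.32 ± 0.21 and 11.10 ± 0.74 (SD, n = 4 each), the log2 fold change was 0.78 ± 0.34 (SE, 1.72-fold). The unadjusted p of the limma fit was 0.0410 and the adjusted p 0.918. The difference was 0.34 within the set of lower and 1.23 within that of higher background, and with the array set as a block the unadjusted p was 0.00671 and the adjusted p 0.356. The smooth muscle gene Acta2 ran in the same order over the Cd151-/- mice, at 11.92, 12.01, 11.44 and 11.05. Over Cd151+/+ mice 1 to 4 its order differed from that of Iqgap1, at 11.12, 10.61, 10.94 and 10.91. Of the 6 tested mesangial and smooth muscle genes, 2 were higher and 4 lower in Cd151-/- mice, with a median log2 fold change of -0.20. The part of smooth muscle or mesangial RNA in the Iqgap1 signal was not tested. The Iqgap1 call was lost without Cd151+/+ mouse 1, 2 or 4 or Cd151-/- mouse 1 or 2 (log2 fold changes of 0.53 to 0.80). With the mouse number as a replicate block the unadjusted limma p was 0.0724.

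By role, the scaffolds and junction plaque proteins (8 tested) included 5 higher and 3 lower genes with a median log2 fold change of 0.11, and besides Iqgap1 the largest difference was 0.43 ± 0.39 (SE) for Prkcz, the atypical protein kinase C of the PAR polarity complex. The membrane and junction proteins (8 tested, 4 higher and 4 lower, median -0.05) were led by Igsf5, an immunoglobulin-like junction protein listed as Jam4, at 0.69 ± 0.44, and Ptpro, a receptor tyrosine phosphatase of podocytes, at -0.43 ± 0.26. Neither passed at an unadjusted p of 0.05. A further Ptpro probe gave -0.26 and a further Prkcz probe 0.32. Both Igsf5 and Prkcz had their highest log2 signal in Cd151-/- mouse 4, at 11.11 and 11.13, and without that mouse the Igsf5 difference was 0.27 and the Prkcz difference 0.019. The sum of the proximal tubule markers was also highest in that mouse, at 75167, and its part in these values was not tested.

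The kinases and signalling adaptors (8 tested, 4 higher and 4 lower) had a median of -0.02. The largest differences were -0.43 ± 0.25 (SE) for Bcar1, the focal adhesion adaptor p130Cas, and -0.26 ± 0.27 for Pik3r1, the regulatory subunit of phosphoinositide 3-kinase. A further pair of Pik3r1 probes gave -0.52 and -0.26. Among the CD2AP partners and endocytic genes (7 tested, 2 higher and 5 lower, median -0.10), Sh3kbp1, whose product CIN85 is a homologue of CD2AP, gave -0.44 ± 0.30, and the dynamin gene Dnm2 gave -0.37 ± 0.38. A further pair of Sh3kbp1 probes gave 0.03 and -0.17. The actin regulators (7 tested, 3 higher and 4 lower) had the lowest median of the roles, at -0.37, with -0.52 ± 0.37 for Actn4, the actin crosslinker alpha-actinin-4, and -0.46 ± 0.42 for the formin gene Inf2, listed as 2610204M08Rik. All 3 Actn4 probes gave differences between -0.54 and -0.52. None of these genes passed at an unadjusted p of 0.05.

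**Figure D4:**
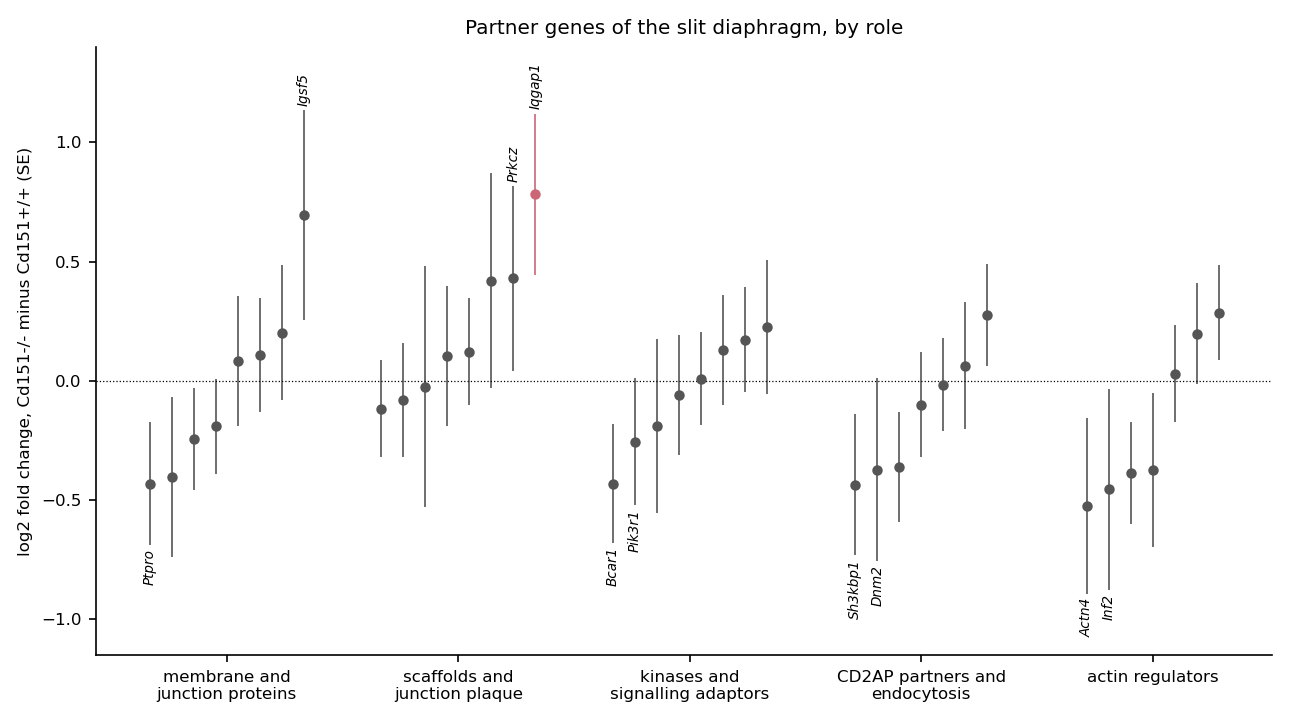
Log2 fold change, Cd151-/- minus Cd151+/+ (y axis), with its SE for the 38 tested partner genes, grouped by role (x axis) and ordered by value within a role. Names mark the 10 genes given in the text, and the single red point, Iqgap1 (0.78), is the gene called at an unadjusted p of 0.05.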

How the data were processed

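Per the labels, glomerular RNA was amplified to biotinylated cRNA and hybridised to Illumina BeadChips, which the authors read in GenomeStudio. The deposited table holds bead-averaged signal intensity without normalisation and a detection p-value per probe and array, and the annotation build is not given in the sources used here. Intensities were corrected by normexp with the background inferred from the detection p-values, quantile normalised after an offset of 16 and log2 transformed (neqc, limma 3.58.1, R 4.3.3). Probes with a detection p at or below 0.05 on at least 1 array were kept, genotypes were compared with lmFit and eBayes, and p-values were adjusted over all tested probes. Of several probes of a gene the brightest was used. All members, partners called at an unadjusted p of 0.05, and the 2 largest differences per role were named. Members and lists were chosen with earlier results of these data known. The code was tested on simulated data. The SAM test of the study was not run. Mice of the same number in the labels were not alike across the genotypes (correlations of -0.58 to -0.01), but they always lay in opposite sets of arrays. These correlations therefore cannot show whether the mouse numbers pair the genotypes. Precision is limited by 4 arrays a group. Values of some genes that the lists count are not reported here.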

Additional observations from a re-analysis of the deposited data

How the results depend on the processing

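The number of slit diaphragm genes called at an unadjusted p of 0.05, 0 in the reported fit, was 0 in all fits that left out 1 mouse. It was 1 (Nck1) with the array set as a block, with array weights and in the set of lower background alone. These 3 fits called 11.3%, 32.2% and 7.32% of all probes. After adjustment, 0 of these genes passed under any alternative. The number of partners called higher, 1 as reported, was 0 without a detection filter, beside 431 of 25697 probes. With array weights it was 3 (Trpc6, Ctnnb1 and Iqgap1), beside 15.6% of all probes, and in the set of lower background 0, beside 3.73%. With a mouse left out it ranged from 0 to 1, beside 131 to 625 of 14967 probes. The number called lower, 0 as reported, was 1 without a detection filter (Cttn), beside 663 of 25697 probes. With array weights it was 10, beside 16.6% of all probes, and in the set of lower background 1 (Bcar1), beside 3.59%. With all probes of a gene averaged it was 1 (Pacsin2), beside 292 of 11240 genes. With a mouse left out it ranged from 0 to 3, beside 209 to 783 of 14967 probes. It was 3 without Cd151-/- mouse 3 (Ptpro, Actn4 and Myo1c), where 783 probes were called lower. Without Cd151+/+ mouse 4 it was 1 (Bcar1), beside 557 probes. The cause was not tested.

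Nck1 stayed higher and Kirrel2 lower under every alternative run, at log2 fold changes of 0.32 to 1.75 and -0.56 to -0.14. The lowest Nck1 difference was that without Cd151+/+ mouse 1, and its adjusted p ranged from 0.0885 to 1.00. Fat1 turned to -0.27 with scaling to the 75th percentile, -0.13 with array weights and -0.39 in the set of higher background, and ranged from -0.13 to 0.21 with a mouse left out. Nck2 turned to 0.15 with array weights and 0.10 in the set of higher background (-0.30 to 0.044 with a mouse left out), and Tjp1 to 0.28 in the set of higher background (-0.18 to 0.088). Prkcz was -0.088 and Sh3kbp1 0.019 in the set of higher background. The median over the set ranged from -0.26 to 0.35. Its upper end came from the fit that required detection on all 4 arrays of a group, where Nck1 and Nck2 alone were tested. With the mouse number as a replicate block the numbers of calls were 0 for the set and 1 for the partners, which was then Jam4 (Igsf5) in place of Iqgap1. This fit called 205 of 14967 probes higher and 215 lower. With detection on all 4 arrays of a group only 2 genes of the set were tested. A correlation with Nphs1 was not run because it has no row. The values of each set of arrays alone were added after seeing the data.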

Other observations

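With no Nphs1 row, the genes most alike in pattern were looked for with Nck2, the only gene of the set detected on all arrays, a choice made after seeing the data. Over the 8 arrays and among 7422 candidate genes, the highest Pearson correlations of log2 signal with Nck2 were 0.97 for Tmem60, 0.96 for Nap1l1, 0.96 for Zfp187, 0.96 for 4732418C07Rik and 0.96 for S100a13, where the median candidate had -0.15. The 8 points share the 2 sets of arrays, and after subtraction of the mean of each set the same genes had correlations of 0.93, 0.91, 0.88, 0.86 and 0.86. The genes at the top changed with this step: Dnaja4 (0.96), Ddx6 (0.96), Mkrn3 (0.96) and Zdhhc21 (0.95) then ranked above Tmem60, with correlations before it of -0.09, -0.30, -0.16 and 0.56. These values describe 8 arrays and were given no test.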
